A study of Drosophila melanogaster with 27 samples.

Results

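Microtubule-associated proteins (MAPs) bind microtubules or their tubulin subunits and set how stable these filaments are, where they start and what they are tied to. In neurons they shape axons, dendrites and synaptic boutons. The 8 mRNAs described here encode fly proteins of this kind: *futsch*, the fly MAP1B-like protein that holds microtubule loops together in synaptic boutons, *tau*, a microtubule-binding protein of axons, *shot*, a spectraplakin that ties microtubules to actin, *Patronin*, which protects microtubule minus ends, *Map205* and *Map60*, which were both found as proteins that bind microtubules in embryos, *stai*, the fly stathmin, which binds tubulin dimers, and *Jupiter*, a small protein that decorates microtubules. The *futsch* mRNA is a known partner of the RNA-binding proteins *Fmr1* and TDP-43 in flies. The 8 genes were listed by name as MAP genes, with earlier results of these data known, and found by FlyBase identifier. All 8 are among the 17529 identifiers of the count table and all passed the filters on low counts, which left 12921 genes in the IP and input libraries and 13349 in all libraries.

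RNA was sequenced from heads of flies aged 1 to 3 days that expressed human TDP-43 in mushroom body neurons (MBNs) as a model of TDP-43 proteinopathy, the question being which mRNAs come down with the protein. The SS01276 split GAL4 line drove, in a subset of MBNs, TDP-43 WT (the transgenes UAS TDP43WT-YFP and UAS mCD8-RFP on chromosome II in a w background), TDP-43 G298S, a variant linked to amyotrophic lateral sclerosis (UAS TDP43G298S-YFP with UAS mCD8-RFP, again in w), or YFP alone (P[UAS-2XEYFP]AH3 in a yw background). Each of the 3 genotypes had 3 lysates of pooled heads, and each lysate gave an input, a GFP-Trap immunoprecipitate (IP) and an unbound library, which makes 27. The lysates carry their label numbers here (WT-502, WT-505, WT-202, G298S-503, G298S-506, G298S-203, YFP-901, YFP-902 and YFP-201). The YFP flies differed from both TDP-43 genotypes also in the yw background and in lacking mCD8-RFP, and the study states that YFP alone was expressed far more strongly than the TDP-43 fusions. Because whole heads were lysed, an input holds RNA of all head cells, and fewer cells of a type and less RNA per cell cannot be told apart.

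Total counts were 16845284 to 157035496 in the inputs, 1848426 to 16763149 in the IPs and 11759327 to 58157031 in the unbound libraries, and the lowest count of any of the 8 mRNAs was 28 (*Map60*, IP of G298S-503). Of the label prefixes, the first is shared by 4 TDP-43 lysates and by no YFP lysate, the second holds YFP-901 and YFP-902 only, and the third holds WT-202, G298S-203 and YFP-201. YFP could thus be compared with TDP-43 within a prefix only in the third, with 1 lysate per genotype, and TDP-43, the background and mCD8-RFP cannot be told apart in any comparison with YFP. Kenyon cell markers were present in every library (10 of 10 above 0 counts), as were those of neurons (6 of 6), glia (6 of 6) and photoreceptors (7 of 7). The IP of WT-502 stood apart for *futsch* and *shot*, and the unbound library of G298S-506 for most of the 8 mRNAs. Levels are CPM, counts relative to library size after TMM scaling, on the scaling of all 27 libraries. The log2 ratios within a lysate and the differences within the third prefix alone use the same scaling. The fitted log2 fold changes (log2FC) of IP over input come from the 18 IP and input libraries, whose scaling differs from that of the levels by a factor of 0.844 to 1.05. All adjusted p values are Benjamini-Hochberg values of edgeR's quasi-likelihood test over all genes tested, and a change was called at an adjusted p below 0.05.

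**Figure D1:**
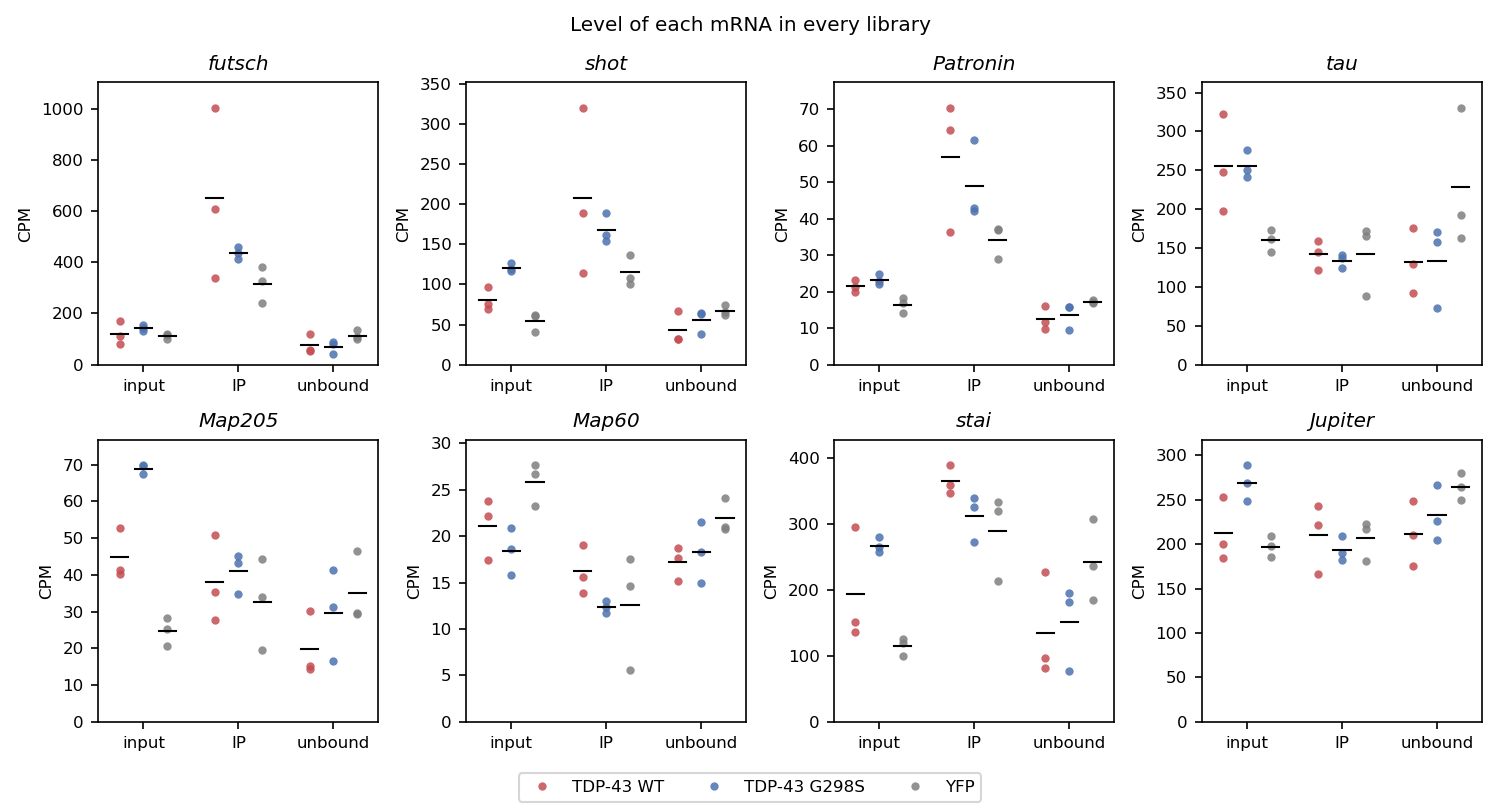
CPM (y axis, linear from 0) of each mRNA in every library, by fraction (x axis) and genotype (colour), with 1 point per lysate and a line at the mean of 3. The *futsch* points of the IPs (243 to 1002 CPM) lie above all points of the inputs (81.1 to 170 CPM), while those of *tau* do not.

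*futsch* was enriched in the IPs of all 3 genotypes, the YFP control included. In the inputs it stood at 111, 170 and 81.1 CPM with TDP-43 WT (in the order WT-502, WT-505, WT-202). It stood at 141, 156 and 130 CPM with TDP-43 G298S (G298S-503, G298S-506, G298S-203) and at 117, 121 and 100 CPM with YFP (YFP-901, YFP-902 and YFP-201). The 3 genotypes overlapped in their inputs. In the IPs, in the same order of lysates, the level was 1002, 607 and 340 CPM with TDP-43 WT. It was 412, 460.0 and 437 CPM with TDP-43 G298S and 381, 243 and 326 CPM with YFP. Every IP was above every input, the TDP-43 G298S IPs were all above the YFP IPs, and the TDP-43 WT IPs spanned both groups. The log2FC of IP over input was 2.38 (SE 0.31, n = 3, adjusted p = 5.03e-05) with TDP-43 WT, a 5.21-fold rise. It was 1.52 (SE 0.31, n = 3, adjusted p = 0.00209) with the G298S variant and 1.58 (SE 0.31, n = 3, adjusted p = 0.0015) with YFP, rises of 2.88-fold and 2.99-fold. These 3 calls held with each of the 9 lysates left out in turn, where the highest adjusted p was 0.0299 (edgeR).

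The question for a TDP-43 partner is whether its enrichment exceeds that with YFP. For *futsch* the log2 ratio of IP over input within a lysate was 3.17, 1.83 and 2.07 with TDP-43 WT, in the lysate order given above. It was 1.54, 1.56 and 1.75 with TDP-43 G298S and 1.70, 1.01 and 1.70 with YFP. The 3 TDP-43 WT lysates were above the 3 YFP lysates, and the lysates of the G298S variant overlapped them. The fitted difference from YFP was 0.80 (SE 0.42, adjusted p = 0.475) for wild-type TDP-43 and -0.055 (SE 0.42, adjusted p = 0.989) with TDP-43 G298S, neither of which passed. TDP-43 WT minus G298S was 0.86 (SE 0.42, adjusted p = 0.684). The WT-502 lysate had the largest ratio, and without it the TDP-43 WT difference from YFP was 0.32. Among the 3 lysates of the third prefix alone it was 0.37 for TDP-43 WT and 0.05 for the G298S variant, and with the prefix as a term in the fit it was 0.40 and -0.40. The comparisons with YFP use the same 6 YFP libraries.

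*shot* and *Patronin* were also higher in every IP than in its input, though *shot* passed the test with TDP-43 WT and YFP only. The *shot* level in the inputs was 69.5, 96.2 and 75.1 CPM with TDP-43 WT, 119, 126 and 116 CPM with the G298S variant and 60.4, 62.0 and 41.2 CPM with YFP. In the IPs it was 319, 189 and 114 CPM with TDP-43 WT, 189, 161 and 155 CPM with the G298S variant and 137, 107 and 101 CPM with YFP. All 9 lysates had more *shot* in the IP than in the input, and the TDP-43 G298S inputs were above all others. The log2FC was 1.31 (SE 0.29, adjusted p = 0.00267) with TDP-43 WT, 0.39 (SE 0.28, adjusted p = 0.367) with the G298S variant and 1.16 (SE 0.29, adjusted p = 0.00755) with YFP. The TDP-43 WT call ended without WT-502 (0.79, adjusted p = 0.0723) and the YFP call without YFP-901 (1.09, adjusted p = 0.0531). *Patronin* inputs had 19.9, 23.3 and 21.2 CPM with TDP-43 WT, 22.1, 23.0 and 24.8 CPM with the variant and 18.2, 16.9 and 14.3 CPM with YFP. Its IPs had 70.3, 64.4 and 36.3 CPM, 42.0, 61.5 and 43.0 CPM, and 36.8, 28.9 and 37.1 CPM. Every *Patronin* IP was above every input. The log2FC was 1.35 (SE 0.22, adjusted p = 0.00025), 0.98 (SE 0.22, adjusted p = 0.004) and 1.14 (SE 0.22, adjusted p = 0.00137) with TDP-43 WT, TDP-43 G298S and YFP, and only the TDP-43 G298S call ended with a lysate left out (G298S-506, 0.82, adjusted p = 0.0582).

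*tau*, by contrast, was depleted from both TDP-43 IPs. Its inputs had 248, 322 and 198 CPM with TDP-43 WT, 242, 250.3 and 276 CPM with the G298S variant and 173, 162 and 145 CPM with YFP. Its IPs had 145, 122 and 159 CPM, 137, 124 and 141 CPM, and 173, 88.0 and 166 CPM. The IPs of the 3 genotypes overlapped, and the genotypes parted in the inputs, where every TDP-43 lysate was above every YFP lysate. The log2FC was -0.88 (SE 0.23, adjusted p = 0.00787) with TDP-43 WT, -1.02 (SE 0.23, adjusted p = 0.00429) with the G298S variant and -0.09 (SE 0.23, adjusted p = 0.829) with YFP. The TDP-43 WT call ended without WT-502 (-0.89, adjusted p = 0.0574) or WT-505 (-0.63, adjusted p = 0.124), and the TDP-43 G298S call without G298S-506 (-0.94, adjusted p = 0.0533).

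*Map205* had the same layout. Its inputs had 40.3, 52.8 and 41.5 CPM with TDP-43 WT, 69.8, 69.5 and 67.4 CPM with the G298S variant and 25.4, 28.4 and 20.7 CPM with YFP. In the IPs it was at 51.0, 35.5 and 27.8 CPM, at 43.3, 45.2 and 34.9 CPM, and at 44.3, 19.5 and 33.9 CPM, so that groups that were separate in the inputs overlapped in the IPs. It fell in the TDP-43 G298S IPs (log2FC -0.84, SE 0.27, adjusted p = 0.0326), a call that ended without any one of the 3 G298S lysates (-0.93, -0.86 and -0.74 without G298S-503, G298S-506 and G298S-203). The log2FC was -0.29 (SE 0.26, adjusted p = 0.476) for wild-type TDP-43 and 0.48 (SE 0.27, adjusted p = 0.209) with YFP. *Map60*, the other of this pair and associated with centrosomes, had the lowest IP levels, at 15.8 to 27.6 CPM in the inputs and 5.54 to 19.1 CPM in the IPs. Its log2FC was below 0 with each genotype (-0.43, -0.65 and -0.96 with TDP-43 WT, TDP-43 G298S and YFP), and only the YFP value passed (SE 0.27, adjusted p = 0.0138). The IP of YFP-901 held the lowest level, and without that lysate the YFP value was -0.56 (adjusted p = 0.0562) and the TDP-43 values passed instead (-0.43 with adjusted p = 0.0396, and -0.65 with adjusted p = 0.00627).

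*stai* rose in the TDP-43 WT and YFP IPs. Its inputs had 136, 295 and 151 CPM with TDP-43 WT, 279, 264 and 257 CPM with the G298S variant and 125, 120.0 and 101 CPM with YFP. Its IPs had 388, 359 and 347 CPM, 326, 272 and 339 CPM, and 319, 213 and 333 CPM. The IPs of TDP-43 G298S and YFP overlapped, and the inputs of all TDP-43 lysates were above those of YFP. The log2FC was 0.88 (SE 0.23, adjusted p = 0.00946) with TDP-43 WT, 0.14 (SE 0.23, adjusted p = 0.71) with the G298S variant and 1.41 (SE 0.24, adjusted p = 0.000546) with YFP. The TDP-43 WT call ended without WT-502 (0.66, adjusted p = 0.12) or WT-202 (0.77, adjusted p = 0.0776). *Jupiter* stood at 184 to 289 CPM in the inputs and 167 to 243 CPM in the IPs. Its log2FC was -0.05 with TDP-43 WT and 0.15 with YFP, and it fell with the G298S variant (-0.56, SE 0.16, adjusted p = 0.0165), a call that ended without any one G298S lysate or without YFP-902 (-0.60 to -0.51, adjusted p up to 0.111).

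**Figure D2:**
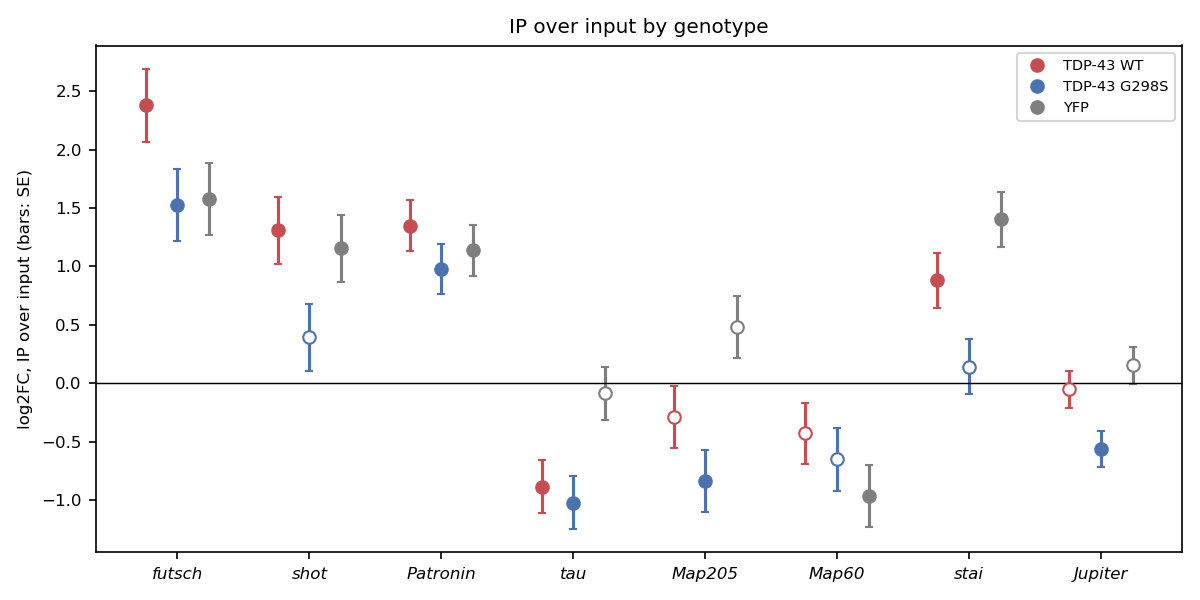
Fitted log2FC of IP over input (y axis) of the 8 mRNAs (x axis) in each genotype, with bars of 1 SE. Filled points have an adjusted p below 0.05. *futsch*, *shot* and *Patronin* lie above 0 in all 3 genotypes and *tau* below 0 in all 3, though not every point passes.

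Counted by the thresholds of the study, a log2FC above 1 and an adjusted p below 0.05, the TDP-43 WT IPs enriched 3 of the 8 (*futsch*, *shot* and *Patronin*), where 10.5% of all genes tested were enriched. The TDP-43 G298S IPs enriched 1 (*futsch*), against 7.39% of all genes. The YFP IPs enriched 4 (*futsch*, *shot*, *stai* and *Patronin*), against 10.3%. In the other direction, 1 of the 8 fell with TDP-43 WT (*tau*, 11.5% of all genes), 3 with the G298S variant (*tau*, *Map205* and *Jupiter*, 9.95%) and 1 with YFP (*Map60*, 9.99%). The median log2FC of the 8 was 0.41, -0.21 and 0.81 with TDP-43 WT, TDP-43 G298S and YFP, beside -0.09, -0.16 and -0.14 over all genes tested.

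None of the 8 had an enrichment that differed from YFP in edgeR. With TDP-43 WT the count was 0, where 1.45% of all genes differed, and 1 of 8 (*tau*, -0.80, SE 0.32) had an unadjusted p below 0.05, as did 12.3% of all genes. With TDP-43 G298S it was 0, where 0.797% of all genes differed, and 4 of 8 had an unadjusted p below 0.05, as did 13.4% of all genes. These were *Map205* (-1.32, SE 0.38), *stai* (-1.26, SE 0.33), *tau* (-0.94, SE 0.32) and *Jupiter* (-0.72, SE 0.22), each less enriched than with YFP. DESeq2 called the same 4, with adjusted p values of 0.0159, 0.00412, 0.0447 and 0.0184, where it called 4.13% of all genes, and it called none with TDP-43 WT, where it called 3.1%. Among the lysates of the third prefix alone the same 4 differences were -1.66, -1.33, -1.16 and -0.65. Between TDP-43 WT and G298S the count was also 0 in both tools, where edgeR called 0.263% of all genes, and 3 of 8 (*shot*, *stai* and *Jupiter*) had an unadjusted p below 0.05, all with the larger value in TDP-43 WT, as had 7.68% of all genes.

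The inputs of both TDP-43 genotypes held more of several of these mRNAs than the YFP inputs. With TDP-43 WT, 3 of the 8 were higher: *Map205* by 0.91 on the log2 scale (SE 0.26, adjusted p = 0.0329), *stai* by 0.79 (SE 0.23, adjusted p = 0.0346) and *tau* by 0.73 (SE 0.23, adjusted p = 0.042). In this comparison 7.58% of all genes were higher. With TDP-43 G298S, 5 of the 8 were higher, against 15.4% of all genes: *Map205* by 1.503, *stai* by 1.24, *shot* by 1.17, *tau* by 0.71 and *Jupiter* by 0.48, with adjusted p values of 0.00138, 0.00193, 0.00779, 0.0295 and 0.0318 (edgeR). *futsch* differed from YFP by 0.15 (SE 0.30, adjusted p = 0.775) and 0.37 (SE 0.30, adjusted p = 0.357). No member fell. Between the TDP-43 genotypes none of the 8 inputs differed in edgeR or DESeq2 (0.248% of all genes in edgeR), and 1 (*Map205*) had an unadjusted p below 0.05, as had 9.26% of all genes. The calls of *Map205*, *stai* and *shot* with TDP-43 G298S held with each lysate left out, with an adjusted p of at most 0.0369 (edgeR), and with the prefix as a term (1.59, 1.30 and 1.41). Those of *tau* and *Jupiter* did not, nor did the 3 with TDP-43 WT: leaving out 1 lysate moved the log2 values to between 0.43 and 1.03 with TDP-43 WT and raised the adjusted p to as much as 0.164 (*stai* without WT-505), while 3.02% to 15.1% of all genes were higher, and with the G298S variant the *tau* call ended without G298S-506, G298S-203 or YFP-201 and the *Jupiter* call without these, G298S-503 or YFP-902, where the values were 0.38 to 0.69. In a fit with the trend on exon length removed from each library, *shot* was at 0.015 (adjusted p = 0.949) with the G298S variant, and *Map205* (0.83) and *stai* (0.75) were still called. In the third prefix alone, *Map205*, *stai*, *tau* and *shot* were higher than in YFP-201 by 1.00, 0.59, 0.44 and 0.86 in WT-202 and by 1.70, 1.35, 0.93 and 1.49 in G298S-203.

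General neuronal markers moved in the same direction. Of 6 neuron markers (*elav*, *nSyb*, *Syt1*, *brp*, *para* and *Rdl*), the inputs of TDP-43 WT held 3 at a higher level and those of the G298S variant 5, and none fell. Their summed level was 886 to 1529 CPM with TDP-43 WT, 1310 to 1344 CPM with the G298S variant and 533 to 707 CPM with YFP, with no overlap between YFP and the others. Of 10 Kenyon cell markers, 2 and 7 were higher, with sums of 516 to 799 CPM, 669 to 738 CPM and 316 to 414 CPM. The 7 photoreceptor markers ran the other way, with 2 and 7 lower and sums of 13120 to 20120 CPM, 10280 to 11310 CPM and 21510 to 28020 CPM. Of 6 glia markers, 1 and 0 were higher and 1 and 1 lower. Of 7 muscle markers, 0 and 0 were higher and 1 and 1 lower. Of 6 fat body markers, 2 and 1 were higher and 0 and 0 lower. Of all 12921 genes tested, 980 and 1986 were higher in these inputs than with YFP, and 952 and 1549 were lower. The neuron markers also moved in the other fractions. In the TDP-43 WT, TDP-43 G298S and YFP IPs, 4, 3 and 4 of the 6 were enriched, beside 10.5%, 7.39% and 10.3% of all genes. Their sum in the unbound libraries was 371 to 1003 CPM, 315 to 811 CPM and 781 to 1260 CPM. The part of these cell types in the differences of the MAP mRNAs was not tested.

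With both TDP-43 genotypes, the RNA left after the beads held less of most of these mRNAs than the input, while with YFP most log2 ratios were above 0. The log2 ratio of unbound over input for *shot* was -1.11, -0.53 and -1.23 in WT-502, WT-505 and WT-202. It was -0.93, -1.74 and -0.84 in G298S-503, G298S-506, G298S-203 and 0.29, 0.09 and 0.58 in YFP-901, YFP-902 and YFP-201. For *stai* it was -0.74, -0.38 and -0.64, then -0.52, -1.77 and -0.50, and 0.91, 0.62 and 1.61. Both mRNAs were below 0 in every TDP-43 lysate and above 0 in every YFP lysate, and G298S-506 was the lowest. For *tau* it was -1.42, -0.87 and -0.61, then -0.50, -1.79 and -0.80, and 0.15, 0.005 and 1.18. For *Map205* it was -1.48, -0.81 and -1.44, then -0.76, -2.07 and -1.10, and 0.23, 0.05 and 1.16. *futsch* followed with -1.08, -0.52 and -0.48, then -0.82, -1.92 and -0.53, and 0.19, -0.25 and 0.08, so that its TDP-43 lysates were again all below its YFP lysates. *Patronin* lay between -1.29 and -0.48 with TDP-43 and between -0.04 and 0.23 with YFP. *Map60* stayed within 0.54 of 0 in every lysate, and *Jupiter* lay between -0.49 and 0.07 with TDP-43 and between 0.26 and 0.60 with YFP. Over all genes the median fitted log2FC of unbound over input was 0.08, 0.14 and -0.10 with TDP-43 WT, TDP-43 G298S and YFP. How many of all genes part by lysate in this way was not counted.

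**Figure D3:**
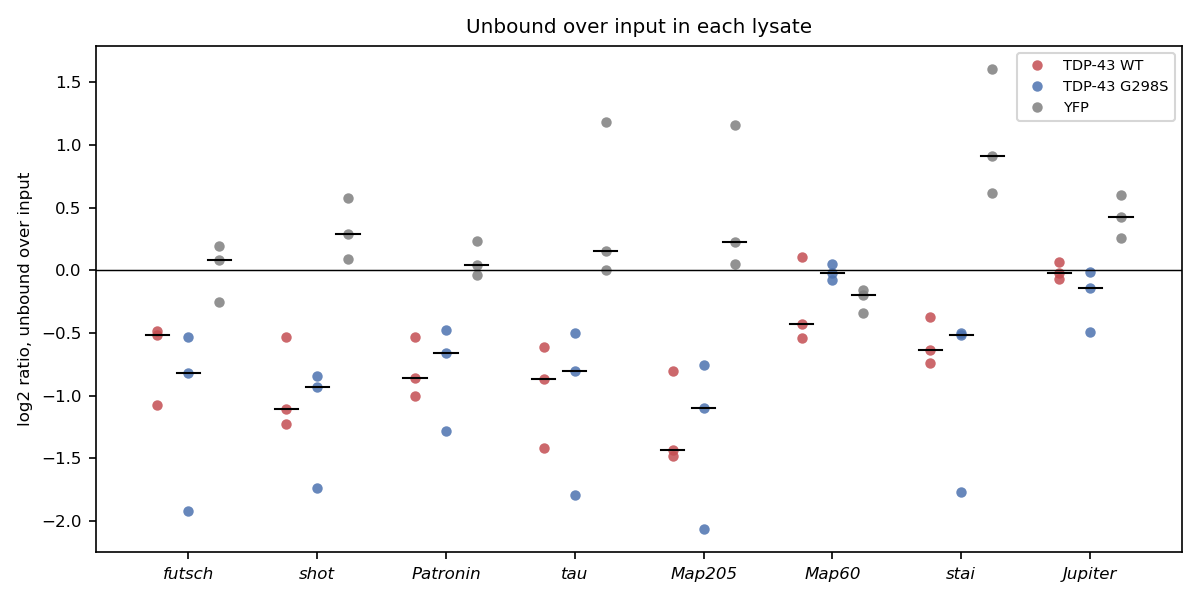
Log2 ratio of unbound over input (y axis) of the 8 mRNAs (x axis), with 1 point per lysate, genotype by colour and a line at the median of 3. For all but *Map60* the TDP-43 points lie below the YFP points, and G298S-506 gives the lowest point of 7 mRNAs. The share of all genes with such a separation was not computed.

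In the fit of all 27 libraries, 3 of the 8 fell from input to unbound with TDP-43 WT, against 7.8% of all genes: *Map205* (-1.17, SE 0.33, adjusted p = 0.0215), *tau* (-0.95, SE 0.31, adjusted p = 0.0387) and *Patronin* (-0.78, SE 0.23, adjusted p = 0.0259). With TDP-43 G298S, 5 fell, against 8.79%: *Map205* (-1.21), *shot* (-1.13), *futsch* (-1.01), *tau* (-0.94) and *Patronin* (-0.77), with adjusted p values of 0.0245, 0.0244, 0.0494, 0.0406 and 0.0302 (edgeR). With YFP none of the 8 and 0.0% of all genes differed at an adjusted p below 0.05 (edgeR, the one tool run here), and *stai* (1.07) and *Jupiter* (0.42) had an unadjusted p below 0.05, as had 4.85% of all genes. With the lysate as a replicate block, *shot* also fell with TDP-43 WT (-0.94, adjusted p = 0.014) and *stai* with TDP-43 G298S (-0.90, adjusted p = 0.0184), and the share of all genes that fell was 13.7% and 14.6%. All 5 TDP-43 G298S calls ended when any one G298S lysate was left out, as did those of all other genes (0.0% called). The log2 values of the 5 were then from -1.51 to -0.57 and their adjusted p values up to 0.457 (*futsch* without G298S-506). That of *futsch* also ended without any one YFP lysate. The TDP-43 WT calls of *Map205* and *Patronin* ended without WT-502 (-1.07 and -0.69) or WT-202 (-1.09 and -0.76), where 1.79% and 1.54% of all genes fell, and that of *tau* without any one WT lysate, G298S-503 or G298S-203 (-1.11 to -0.76).

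The difference from YFP in unbound over input, a test added after these values were seen, passed for *tau* and *Map205* with TDP-43 WT (-1.46 and -1.66, adjusted p = 0.0447 and 0.0406), where 3.09% of all genes were lower. It passed for *tau*, *Map205*, *shot* and *stai* with TDP-43 G298S (-1.45, -1.71, -1.43 and -1.89, adjusted p = 0.0357, 0.0318, 0.0362 and 0.0318), where 8.79% were lower. With the replicate block, *shot* (-1.25, adjusted p = 0.026) and *stai* (-1.59, adjusted p = 0.0152) passed with TDP-43 WT too, and *Jupiter* (-0.63, adjusted p = 0.0308) with TDP-43 G298S, where 10.2% and 12.5% of all genes were lower. *futsch* was at -0.67 (SE 0.49, adjusted p = 0.433) and -1.03 (SE 0.50, adjusted p = 0.162). In the third prefix alone, *tau*, *Map205*, *shot* and *stai* were at -1.80, -2.60, -1.81 and -2.24 in WT-202 and at -1.99, -2.26, -1.42 and -2.11 in G298S-203, each relative to YFP-201. Leaving out 1 lysate changed these counts along with those of all genes. No member was lower with TDP-43 WT without WT-502, WT-202, G298S-503, YFP-902 or YFP-201, where 0.0% of all genes were called, or without G298S-203, where 0.214% were lower. No member was lower with the G298S variant without any one G298S lysate or YFP-201, where 0.0% of all genes were called.

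The sign of most comparisons with YFP depended on the reference fraction. With the input as the reference, the difference in enrichment from YFP was below 0 for *tau*, *Map205*, *stai* and *Jupiter* with TDP-43 WT and, besides these, for *futsch*, *shot* and *Patronin* with the G298S variant. Against the unbound fraction it was above 0 for all 8 mRNAs with both TDP-43 genotypes, while its median over all genes was 0.01 and 0.02. For *futsch* it was 1.61 (SE 0.50, adjusted p = 0.0671) for wild-type TDP-43 and 1.15 (SE 0.50, adjusted p = 0.216) with TDP-43 G298S. The log2 ratio of IP over unbound for *futsch* was 2.35 to 4.25 in the TDP-43 WT lysates, 2.28 to 3.48 in the lysates of the G298S variant and 1.26 to 1.62 in the YFP lysates, so that both TDP-43 groups were above YFP. *shot* (1.47, SE 0.43, adjusted p = 0.0527) and *Patronin* (1.20, SE 0.33, adjusted p = 0.035) were the next with TDP-43 WT. *Patronin* was the only member past the threshold with TDP-43 WT, where 4.52% of all genes were higher, and none passed with the G298S variant, where 1.76% were higher.

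**Figure D4:**
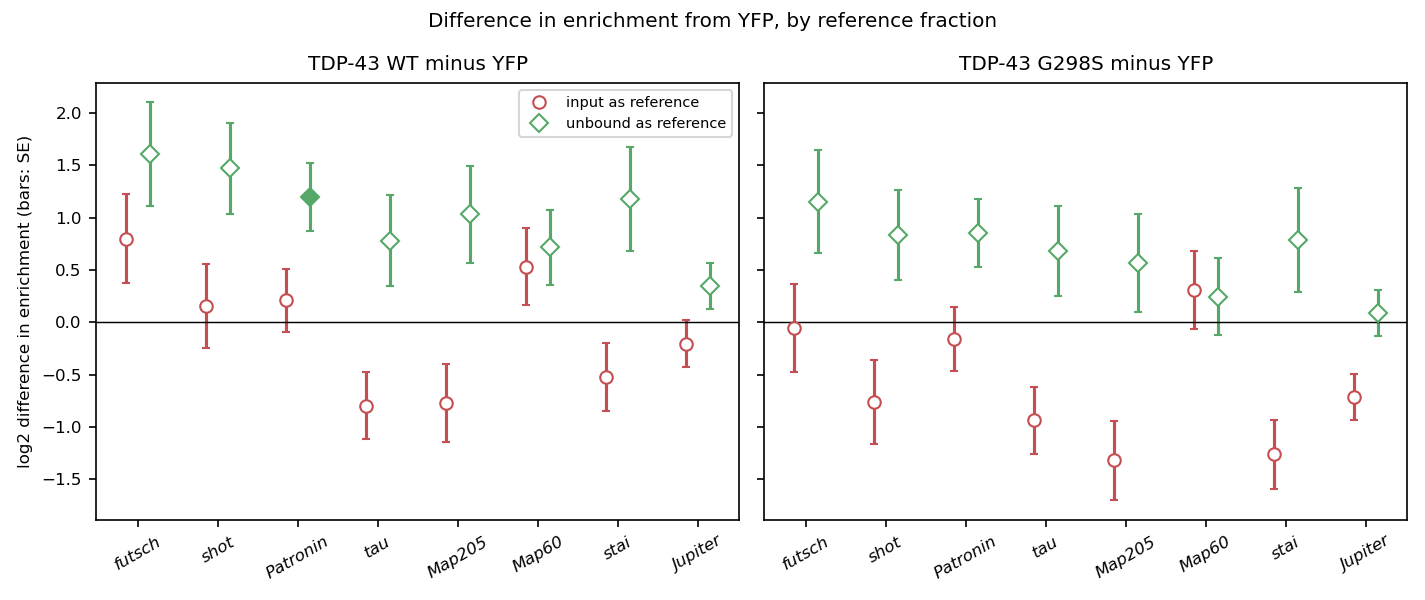
Difference in enrichment from YFP (y axis, log2, bars of 1 SE) for the 8 mRNAs with the input (circles) or the unbound fraction (diamonds) as the reference. The filled point has an adjusted p below 0.05. With the unbound reference all points lie above 0, from 0.09 (*Jupiter*, TDP-43 G298S) to 1.61 (*futsch*, TDP-43 WT).

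Long mRNAs as a class had a higher IP over input in all 3 genotypes, and *futsch* is one of the longest. Its exons (gene FBgn0259108) sum to 23308 bases in the Ensembl annotation (X chromosome, 3 transcripts, the longest protein 5495 residues), and 5.09% of them overlap the receptor gene *Gr2a* on the same strand. *shot* (FBgn0013733, 2R) sums to 30414 bases, *Patronin* (FBgn0263197, 2R) to 7787, *tau* (FBgn0266579, 3R) to 7252, *Map205* (FBgn0002645, 3R) to 6046, *stai* (FBgn0266521, 2L) to 3792, *Jupiter* (FBgn0051363, 3R) to 2522 and *Map60* (FBgn0010342, 2R) to 1814. The median log2FC of IP over input rose from -0.25 (TDP-43 WT), -0.23 (TDP-43 G298S) and -0.27 (YFP) in the 4168 genes of at least 1000 and under 2000 bases to 1.04, 0.62 and 1.25 in the 434 genes of at least 8000 and under 16000 bases. It was 1.15, 0.56 and 1.07 in the 47 genes of 16000 bases or more, of which 53.2%, 27.7% and 48.9% were enriched. In that class the median difference in enrichment from YFP was -0.11 with TDP-43 WT and -0.56 with the G298S variant, where 6 and 13 of the genes were above *futsch*. By IP over input, 1 gene was above *futsch* with TDP-43 WT, none with the G298S variant and 12 with YFP. *shot* was in the middle of them, with 19, 28 and 18 genes above it. *Patronin* was above 83.1%, 83.5% and 73.1% of the 1669 genes of at least 4000 and under 8000 bases, and *tau*, in the same class, was above 6.41%, 4.79% and 27.6%. *stai* was above 89.8%, 68.7% and 94.4% of the 3475 genes of at least 2000 and under 4000 bases.

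**Figure D5:**
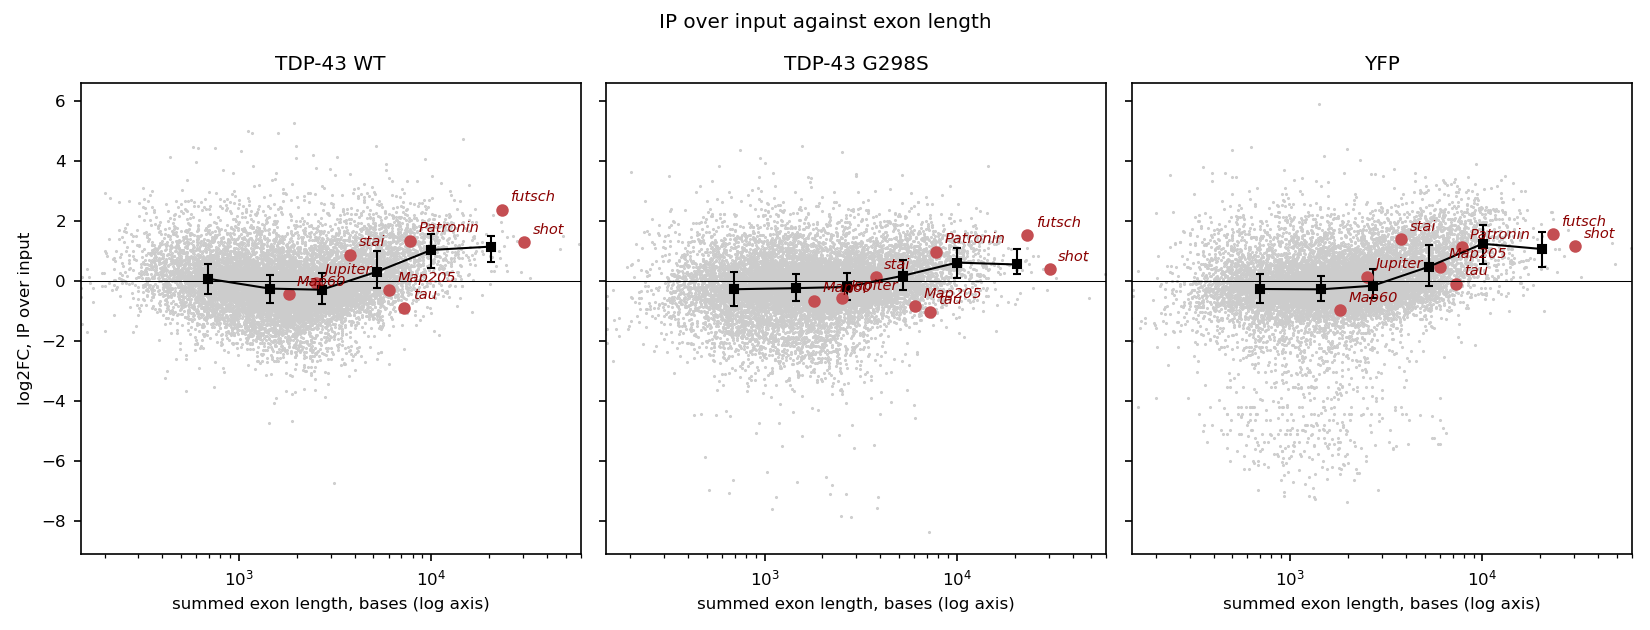
Log2FC of IP over input (y axis) against summed exon length in bases (x axis, log scale) for all genes tested (grey), with the median and quartiles of each length class (black) and the 8 mRNAs (red). *futsch* lies above the upper quartile of its class with TDP-43 WT (2.38 against 1.51) and TDP-43 G298S (1.52 against 1.08) and just below it with YFP (1.58 against 1.65).

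A fit with the trend on exon length removed from each library gave *futsch* a log2FC of 0.72 (SE 0.18, adjusted p = 0.0103) with TDP-43 WT, 0.64 (SE 0.18, adjusted p = 0.0223) with the G298S variant and -0.09 (SE 0.18, adjusted p = 0.82) with YFP. The rise was still called with both TDP-43 genotypes and the YFP rise was no longer called. The differences from YFP were then 0.81 (SE 0.25, adjusted p = 0.261) and 0.73 (SE 0.25, adjusted p = 0.334), which did not pass, beside medians of 0.004 and 0.16 over all genes. In the same fit *shot* turned to -0.55, -0.61 and -0.60, *Patronin* stayed above 0 (0.58, 0.60 and 0.31), *tau* fell further (-1.51, -1.36 and -0.89) and *stai* was at 0.84, 0.23 and 1.27. The few genes of the longest class carry the trend at the length of *futsch* and *shot*. In the inputs the same trend removal moved the all-gene median relative to YFP to -0.39 with TDP-43 WT and -0.45 with the G298S variant. The input values of *futsch* were then -0.57 and -0.76 (adjusted p = 0.0282 and 0.00576), below these medians.

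Set beside other cytoskeleton mRNAs, *futsch* belonged with the long ones. Of 52 such mRNAs, the 8 included, 13 had exons of 8000 bases or more, and of these 6, 2 and 4 were enriched with TDP-43 WT, TDP-43 G298S and YFP. Of all genes of at least 8000 and under 16000 bases, 47.7%, 26.7% and 56.7% were enriched. Of the 23 such mRNAs under 4000 bases, 2, 0 and 1 were enriched. The shares in the length classes of all genes under 4000 bases were 5.25% to 8.21%, 5.25% to 5.57% and 3.81% to 8.29%. Without WT-502 the count of long mRNAs enriched with TDP-43 WT was 2, and over the other lysates left out it was up to 7, while that of short ones was 2 to 3. With the exon length trend removed it was 0 for long mRNAs and 3 for short ones, where 8.05% of all genes were enriched. *Ank2*, the giant neuronal ankyrin with 46969 bases, named after its values were seen, rose with TDP-43 WT (1.08, SE 0.31, adjusted p = 0.0147) and YFP (1.27, SE 0.31, adjusted p = 0.00677) and was at 0.70 (SE 0.30, adjusted p = 0.115) with the G298S variant. *futsch* had the highest log2FC of the 13 with TDP-43 WT. The highest with the G298S variant and with YFP was *toc* (1.61 and 2.03), which encodes a microtubule-associated protein needed in the early embryo.

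Of 16 other microtubule regulators, 4, 2 and 1 were enriched with TDP-43 WT, TDP-43 G298S and YFP, and 4, 4 and 3 fell. Of all genes tested, 10.5%, 7.39% and 10.3% were enriched and 11.5%, 9.95% and 9.99% fell. The TDP-43 WT count was 1 without WT-502, the G298S count 1 without G298S-506 and the YFP count 3 without YFP-902. In these fits 6.79%, 6.01% and 10.9% of all genes were enriched. The largest rises with TDP-43 WT were *toc* (1.57, SE 0.24, adjusted p = 0.000167), *Efa6* (1.37, SE 0.26, adjusted p = 0.000973), which removes microtubules at the axon cortex, and *Apc* (1.24, SE 0.28, adjusted p = 0.00332), a Wnt pathway protein that binds microtubules. DESeq2, but not edgeR, called a difference from YFP for 3 of the 16 with the G298S variant, where it called 4.13% of all genes. Of 9 tubulins none was enriched and 4 fell with each genotype, with TDP-43 WT by 1.06 (*alphaTub84D*), 1.03 (*betaTub97EF*), 0.73 (*betaTub56D*) and 0.64 (*alphaTub84B*) on the log2 scale. Some tubulin genes are near-identical copies, so reads may be split or lost between those. Of 19 spectrin, ankyrin and actin genes, 3, 0 and 3 were enriched and 3, 6 and 2 fell. With TDP-43 WT, 2 of them differed from YFP in edgeR, where 1.45% of all genes differed. Those were *tsr*, the fly cofilin (difference 2.05, SE 0.36, adjusted p = 0.00596), and *sqh*, the myosin regulatory light chain (1.63, SE 0.23, adjusted p = 0.00127), both under 4000 bases. The median of this difference was 0.35 in the length class of *tsr* and 0.02 in that of *sqh*. Their inputs were lower with TDP-43 WT (215 to 337 CPM for *tsr*, 139 to 188 CPM for *sqh*) than with YFP (437 to 595 CPM and 234 to 276 CPM). Unbound over input was also higher with TDP-43 WT (0.51 to 1.02 for *tsr*, 0.35 to 0.62 for *sqh*) than with YFP (-0.71 to -0.12 and -0.24 to -0.004). Against the unbound fraction, the IP ratio of *tsr* was -0.348 to 1.21 with TDP-43 WT and -0.81 to -0.354 with YFP. That of *sqh* was 0.42 to 0.97 and -0.82 to -0.09. *Act42A*, a cytoplasmic actin, fell with TDP-43 WT (-1.14, SE 0.20, adjusted p = 0.000418).

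Among 8 genes that act on *futsch* or *tau*, the kinase gene *Cdk5* was the one whose enrichment exceeded that with YFP in edgeR. Its IP over input ratio was above 0 in all 6 TDP-43 lysates (0.99 to 1.94) and below 0 in the 3 YFP lysates (-0.43 to -0.06). The difference was 1.61 (SE 0.24, adjusted p = 0.00187) for wild-type TDP-43 and 1.25 (SE 0.24, adjusted p = 0.0277) with TDP-43 G298S. The second was not called with the replicate block (1.25, adjusted p = 0.0504), or without any one G298S or YFP lysate (1.13 to 1.38). With the prefix as a term neither was called (1.33 and 0.96), nor were *tsr* (2.42) and *sqh* (1.49), in a fit that called 0.0619% of all genes with TDP-43 WT and 0.0% with the G298S variant. *hiw*, a ubiquitin ligase that restrains synaptic growth, rose with TDP-43 WT (1.52, SE 0.30, adjusted p = 0.00136) and TDP-43 G298S (1.43, SE 0.30, adjusted p = 0.00317). *wnd*, the kinase that *hiw* holds down, rose in all 3 genotypes (1.43, 1.64 and 1.55). *Fmr1* fell with TDP-43 G298S (-0.91, SE 0.28, adjusted p = 0.0284), and *TBPH*, the fly gene for TDP-43, fell with YFP (-0.69, SE 0.15, adjusted p = 0.00301).

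Per kilobase of exon, *futsch* was a mRNA of modest level in these heads. In the YFP inputs the mean was 4.83 ± 0.46 CPM per kb (SD, n = 3) for *futsch*, below *Jupiter* (78.2 ± 4.71), *stai* (30.4 ± 3.44), *tau* (22.1 ± 1.96) and *Map60* (14.3 ± 1.26), beside *Map205* (4.11 ± 0.64) and above *Patronin* (2.11 ± 0.26) and *shot* (1.79 ± 0.38). *futsch* and *Map205* were within their spread of each other, as were *Patronin* and *shot*. Over the 9 groups the mean level of *futsch* was lowest in the unbound libraries of TDP-43 G298S (70.4 ± 25.9 CPM) and TDP-43 WT (76.5 ± 36.8 CPM). YFP input (113 ± 10.7 CPM), YFP unbound (114 ± 17.5 CPM), TDP-43 WT input (121 ± 45.3 CPM) and TDP-43 G298S input (143 ± 12.9 CPM) came next, and neighbours in this order overlapped. Above them, and apart from them, came the IPs of YFP (317 ± 69.9 CPM), TDP-43 G298S (437 ± 23.9 CPM) and TDP-43 WT (650 ± 333 CPM), of which the YFP and TDP-43 G298S values did not overlap and the TDP-43 WT values overlapped both.

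The pattern of *futsch* over the 27 libraries was shared by many genes. The 5 most like it by Pearson's r of log2 CPM among 13348 genes were *CG11000* (r = 0.987), *Stacl* (0.983), *CG42340* (0.983), *jvl* (0.982), which encodes a microtubule-associated protein needed in bristles, and *tyf* (0.981), a partner of the clock's translation machinery. These points share their libraries and lysates, so r is a description. All 5 had exons of 6816 to 14690 bases, and all 5 had a log2FC above 1 in the 3 genotypes, at 1.69 to 2.19 with TDP-43 WT, 1.12 to 1.46 with the G298S variant and 1.49 to 1.90 with YFP. Of the other MAPs, *Patronin* ranked 18th (r = 0.972) and *shot* 435th (0.921), followed by *stai* (0.814), *Map205* (0.42), *tau* (-0.02), *Jupiter* (-0.23) and *Map60* (-0.47).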

How the data were processed

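The authors made SMART-Seq HT PLUS libraries, which do not mark strand, aligned reads with STAR 2.6.1d, counted them per gene with featureCounts 1.6.3 and deposited raw whole-number counts in one table. The submitters' processing notes also name cutadapt 2.7 and bcl2fastq 2.19.1.403. The genome release is not given in the sources used here. Symbols, chromosomes and exon lengths came from Ensembl release 115, which matched 17425 of 17529 identifiers. No column of authors' comparisons was used.

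Tests on these counts used edgeR 4.0.16 under R 4.3.3 (TMM, filterByExpr, quasi-likelihood F test, Benjamini-Hochberg), on 18 IP and input libraries in 6 groups without a block, and on all 27 libraries for the unbound fraction. The study used DESeq2, here an alternative (version 1.42.0) since edgeR served as the main tool for counts. Differences in enrichment are interaction contrasts. Log2 ratios per lysate used a prior count of 2. The fits were tested on simulated data. Reads carry no molecular identifiers, so the spread between lysates was the error used.

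Input, IP and unbound libraries of one number come from the same lysate. The deviations of IP and input from their group means correlated across genes with r from 0.07 (WT-502) to 0.75, and the replicate block was an alternative, as were DESeq2's size factors in edgeR, library sizes alone, other filters on low counts, leaving out rRNA and mitochondrially encoded genes, a fit of all 27 libraries, the unbound fraction as the reference, an exon length trend removed from each library (loess, span 0.5), the label prefix as a term, and each lysate left out. Long means summed exons of 8000 bases or more and short under 4000.

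The members and lists were chosen with earlier results of these data known. The text names the 8 members, listed genes called in a difference from YFP, the 3 listed genes of each list with the largest called change in the TDP-43 WT IPs, and the 5 genes most like *futsch*. *Ank2*, *alphaTub84B*, *Fmr1*, *TBPH* and the *toc* values of other genotypes were added after their values were seen. *betaTub60D* and *zip* matched no identifier and were not analysed here.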

Additional observations from a re-analysis of the deposited data

Results flagged for a closer look

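For 4 mRNAs the change from input to unbound differed between TDP-43 G298S and YFP, and for 2 between TDP-43 WT and YFP. Of all genes, 8.79% and 3.09% were lower in these comparisons. So were 6 and 3 of 10 Kenyon cell markers and 8 and 3 of 19 spectrin, ankyrin and actin genes. Of 9 tubulins, 0 and 0 were lower. The test of the difference passed for *tau* (-1.46 in TDP-43 WT flies, -1.45 in TDP-43 G298S flies), *Map205* (-1.66 and -1.71), *shot* with TDP-43 G298S (-1.43) and *stai* with TDP-43 G298S (-1.89). For *shot* (-1.18, adjusted p = 0.078) and *stai* (-1.59, adjusted p = 0.0512) with TDP-43 WT, and for *Jupiter* (-0.63, adjusted p = 0.052) with TDP-43 G298S, every TDP-43 lysate was below 0 and every YFP lysate above 0, while the test did not pass. With the replicate block these 3 passed (adjusted p = 0.026, 0.0152 and 0.0308). The share of all genes with opposite signs in this way was not computed. Without YFP-201 no difference was called in any gene (0.0% of all genes with either genotype), and the values of *tau* were -1.03 and -1.02.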

How the results depend on the processing

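Over the 8 mRNAs, 97 results were recomputed under 1524 alternatives: 1275 kept their direction and side of the threshold, 134 lost and 42 gained a call, and 73 changed sign. The causes were not tested. The leave-one-out fits of the unbound comparisons and the tests of their difference from YFP were chosen after seeing the data. The TG repeat counts were not run, since no transcript sequence was used here. Depth limits *Map60* most, with a lowest count of 28. The leave-one-out fits leave 2 lysates in a group.

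DESeq2 called 4 members in the TDP-43 G298S minus YFP enrichment and the filter of at least 10 counts called 2 (0 in the report). They called 4.13% and 4.27% of all genes. With all 27 libraries in the fit that difference was 0.12 for *futsch* and 0.015 for *Patronin*. In this fit 2 members were enriched with TDP-43 G298S (8.29% of all genes), and 0 were higher in the TDP-43 WT input (3.37%). Without mitochondrially encoded and rRNA genes, *futsch* was at 0.095 in the TDP-43 G298S minus YFP difference and 2 members were enriched with TDP-43 G298S (8.62% of all genes).

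With the exon length trend removed, IP over input was -0.089 for *futsch* with YFP, -0.55, -0.61 and -0.60 for *shot*, -0.14 for *Map205* with YFP and 0.21 for *Jupiter* with TDP-43 WT. The TDP-43 G298S minus YFP enrichment was 0.73 for *futsch* and 0.29 for *Patronin*. This fit moved the all-gene medians of the inputs relative to YFP from 0.13 and 0.09 to -0.39 (TDP-43 WT) and -0.45 (G298S). TDP-43 WT over YFP input was -0.57 for *futsch*, -0.072 for *shot*, -0.30 for *Jupiter* and -0.10 for *Patronin*, and TDP-43 G298S over YFP input was -0.76 for *futsch*, -0.042 for *tau* and -0.24 for *Patronin*. The enriched counts were 0, 0 and 1, where 8.05%, 8.65% and 7.22% of all genes were enriched. Those falling in the IP were 2 (TDP-43 WT) and 2 (YFP), against 5.61% and 4.72%. Those higher in the input were 0 and 2, against 5.56% and 8.25%.

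With the label prefix as a term, *futsch* TDP-43 WT over YFP input was -0.011 and the TDP-43 WT minus YFP enrichment was -0.58 for *shot* and -0.67 for *Patronin*. In this fit 0 and 3 members were higher in the TDP-43 WT and G298S inputs, against 2.39% and 10.2% of all genes.

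Library sizes alone moved the all-gene median of IP over input from -0.09, -0.16 and -0.14 to 0.28, 0.72 and 0.06, of the TDP-43 G298S minus YFP enrichment to 0.66 and of the TDP-43 G298S over YFP input to -0.31. These medians were not subtracted from the values that follow. *futsch* was at 0.63 and *Patronin* at 0.53 in that enrichment, and *futsch* at -0.037 in that input. Unbound over input with YFP was -0.30 for *futsch*, -0.023 for *shot* and -0.25 for *Patronin*, beside a median of -0.40 over all genes. IP over input was 0.11 for *tau* (YFP), 0.08 and 0.04 for *Map205* (TDP-43 WT and G298S), 0.23 for *Map60* (G298S), and 0.33 and 0.32 for *Jupiter* (TDP-43 WT and G298S). *Map60* was at 0.17 in G298S unbound over input and at 0.19 in the TDP-43 WT difference from YFP. Counts became 4 enriched with G298S, 0, 0 and 0 falling in the IPs, 3 higher in the G298S input, 3 falling in the G298S unbound and 2 in its difference from YFP. Of all genes, 30.6% were then enriched with G298S, and 3.06%, 0.488% and 2.68% fell in the TDP-43 WT, G298S and YFP IPs. The share higher in the G298S input was 8.54%, that falling in its unbound 7.07% and that lower in its difference from YFP 4.02%.

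With the replicate block, *futsch* YFP unbound over input was -0.002 and 4 members were lower in the TDP-43 WT difference from YFP in unbound over input (10.2% of all genes). Beside this and the calls given in the report, the block changed counts by at most 1.5 times.

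Set against the unbound fraction, the difference in enrichment from YFP with TDP-43 WT and G298S was 0.78 and 0.68 for *tau*, 1.03 and 0.57 for *Map205*, 1.18 and 0.79 for *stai* and 0.35 and 0.089 for *Jupiter*. With TDP-43 G298S it was 1.15 for *futsch*, 0.83 for *shot* and 0.85 for *Patronin*. IP over unbound was 0.10 and 0.0 for *tau* with TDP-43 WT and G298S, 0.93, 0.46 and -0.10 for *Map205*, -0.35 for *Jupiter* with YFP and -0.15 for *tsr* with G298S. Enriched counts were 4 (G298S) and 1 (YFP), against 14.9% and 5.68% of all genes. Falling counts were 0 and 0 (TDP-43 WT and G298S), against 16.2% and 17.8%. With TDP-43 WT, 1 member differed from YFP, against 4.75%.

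With 1 lysate left out at a time, the TDP-43 G298S minus YFP enrichment ranged from -0.25 to 0.077 for *futsch*, -0.10 to 0.70 for *Map60* and -0.32 to 0.014 for *Patronin*, and the TDP-43 WT minus YFP enrichment from -0.37 to 0.42 for *shot* and -0.003 to 0.46 for *Patronin*. *futsch* TDP-43 WT over YFP input ranged from -0.12 to 0.33. IP over input ranged from -0.30 to 0.20 for *tau* with YFP and -0.21 to 0.018 for *Jupiter* with TDP-43 WT. Unbound over input ranged from -0.09 to 0.14 for *futsch* and -0.001 to 0.13 for *Patronin* with YFP, -0.05 to 0.011 for *Map60* with G298S and -0.055 to 0.03 for *Jupiter* with TDP-43 WT, and the TDP-43 WT difference from YFP in it from -0.29 to 0.053 for *Map60*. Counts of members ranged from 1 to 2 enriched with G298S, 0 to 2, 0 to 4 and 0 to 1 falling in the TDP-43 WT, G298S and YFP IPs, 0 to 1 differing in G298S minus YFP enrichment, 0 to 3 and 3 to 6 higher in the TDP-43 WT and G298S inputs, 0 to 3 and 0 to 6 falling in the unbound libraries, and 0 to 4 and 0 to 6 lower in their differences from YFP. Over the same fits, 4.93% to 7.85% of all genes were enriched with G298S. In the IPs 5.9% to 12.6%, 4.41% to 11.2% and 3.49% to 11.0% fell. The G298S minus YFP enrichment was higher for 0.0229% to 0.68% and lower for 0.0% to 0.634%. In the inputs 3.02% to 15.1% and 8.54% to 21.9% were higher. In the unbound libraries 1.54% to 8.7% and 0.0% to 13.4% fell, and 0.0% to 8.13% and 0.0% to 12.3% were lower in the differences from YFP.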
